A study of Mus musculus with 9 samples.

Results

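The genes described here encode the proteins of the cytosolic ribosome, in mouse aorta with or without a Cre transgene aimed at the angiotensin II type 1a receptor. They were chosen by name: protein-coding mouse symbols of the forms Rpl or Rps followed by a number, with an optional a, x or l and digit, together with Rplp0, Rplp1, Rplp2 and Rpsa. Symbols ending in -ps and the S6 kinases were left out. Of 83 such protein-coding symbols in GENCODE M21, 81 had an entry among the 37668 genes of the deposited table, 32 for the small subunit and 49 for the large subunit. Rpl24 and Rpl41 were not analysed here. After a filter of 1 FPKM or more in at least 1 group, 79 of the 81 and 14225 genes in all were analysed.

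RNA was sequenced from the aortas of 9 male mice aged 90 days, on a mixed 129T2SvEmsJ:C57Blk/6J background, with 3 libraries in each of 3 groups. All 3 groups carried a floxed allele of the receptor gene, labelled AT1ar. The floxed group had no Cre, the Cdh5Cre group added Cre under the Cdh5 promoter, and the Sm22Cre group added Cre under the Sm22 promoter. Cdh5, the gene of vascular endothelial cadherin, is an endothelial gene, and a Cdh5 promoter can also leave its mark in blood cells that arise from endothelium. Sm22, also called Tagln, is a smooth muscle gene that is also switched on in the developing heart. The title of the series names Marfan syndrome, but the labels describe no fibrillin-1 allele, and no group without the floxed allele was used here. The deposited values are FPKM (fragments counted per gene, divided by transcript length and by the library total), 1 per gene and group, with the libraries of a group already combined by the authors. Agtr1a, the receptor gene itself, was at 1.75 FPKM in the floxed group, 1.32 in Cdh5Cre and 1.21 in Sm22Cre, a value for the whole gene in the whole tissue that does not separate the floxed part or the targeted cells. The values carry no SD, n or p, no difference below has a replicate check, and the sequencing depth is unknown.

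Each ribosome is built from a small subunit, which reads the message, and a large subunit, which joins the amino acids, and most ribosomal proteins are present at 1 copy per ribosome. Their genes are active in every cell type, are scattered over the genome, and give short and very abundant mRNAs. Most of these mRNAs begin with a run of C and T letters, the terminal oligopyrimidine tract, through which the kinase complex mTORC1 and the protein Larp1 control their translation and stability. Surplus ribosomal proteins that find no place in a ribosome are degraded, so levels of mRNA and protein can part ways.

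The sequences around the start sites are given first, because the C/T run is the feature that the family is known for. RefSeq promoter sequences (GRCm38.p6) were matched by symbol for 61 of the 81 members. Of these, 27 (44.3%) had an uninterrupted run of 8 or more C or T bases within the 30-base window that reaches from 15 bases before the annotated start to 15 bases from it, against 13.9% of 27025 genes and 15.1% of the genes analysed. A run of 10 or more bases was found in 20 members (32.8%) and in 6.25% of genes. The windows below, 5′ to 3′ on the strand of the gene with the longest C/T run in capitals, belong to the 6 members with the highest and then the 6 with the lowest ratio of Cdh5Cre to floxed among the 59 analysed members with such a sequence.
Rps15, chr10:80292416-80292445, plus strand: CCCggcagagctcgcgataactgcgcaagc
Rpl13, chr8:123102335-123102364, plus strand: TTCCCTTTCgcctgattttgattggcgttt
Rpl28, chr7:4792950-4792979, plus strand: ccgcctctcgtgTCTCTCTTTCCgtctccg
Rpl37, chr15:5116598-5116627, plus strand: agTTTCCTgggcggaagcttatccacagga
Rpl31, chr1:39367836-39367865, plus strand: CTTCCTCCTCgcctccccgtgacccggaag
Rpsa, chr9:120127751-120127780, plus strand: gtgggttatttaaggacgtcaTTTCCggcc
Rpl7a, chr2:26910792-26910821, plus strand: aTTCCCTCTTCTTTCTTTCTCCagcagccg
Rpl4, chr9:64173372-64173401, plus strand: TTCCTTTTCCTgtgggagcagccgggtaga
Rps3, chr7:99483695-99483724, minus strand: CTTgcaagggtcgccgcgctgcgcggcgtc
Rpl22l1, chr3:28805493-28805522, plus strand: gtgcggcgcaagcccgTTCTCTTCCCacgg
Rpl15, chr14:18270972-18271001, minus strand: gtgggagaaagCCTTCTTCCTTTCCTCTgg
Rpl7l1, chr17:46782642-46782671, minus strand: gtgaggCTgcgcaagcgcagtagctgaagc
Both ends of the order hold windows with long runs and windows with hardly any. Rpl28 (11 bases) and Rpl31 (10 bases) among the high ratios, and Rpl7a (21 bases), Rpl15 (17 bases) and Rpl4 (11 bases) among the low ones, carry a long run, while Rps15 and Rps3 have no run beyond 3 bases in this window. In Rpl13, Rpl31 and Rpl4 the marked run lies wholly before the annotated start. By that annotation it is not part of the mRNA. The median log2 ratio of Cdh5Cre to floxed was 0.66 for the 27 members with a run of 8 or more and 0.60 for the 32 analysed members with a shorter one. The annotated start is taken from RefSeq, so a window can miss the start used in aorta. Runs on either side of the start were counted. For a gene with several annotated promoters the one with the longest run was taken.

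Other motifs were searched in the same sequences. CTTTCC on the sense strand near the start was found in 10 members (16.4%) against 1.67% of all genes, and the overlapping CTCTTTC in 6 members (9.84%) against 0.488%. Over the whole 300 bases and on either strand, CCGGAAG, the core bound by Ets factors such as Gabpa, was found in 25 members (41.0%), against 9.93% of all genes and 19.6% of the genes analysed. GCCATCTT, a core of the Yy1 site, was present in 6 members (9.84%), against 3.19% of all genes and 5.18% of the genes analysed. The E-box CACGTG, read by Myc and Max, was found in 6 members (9.84%), against 8.09% of all genes and 11.6% of the genes analysed. TATAAA was found in 7 (11.5%), against 15.7% of all genes and 8.73% of the genes analysed. For both motifs the members' share lay between that of all genes and that of the genes analysed. These are matches of letters and not measured sites.

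In the floxed aorta the ribosomal protein genes were among the most abundant transcripts. Leaving out the 6 paralogues named after another member, the remaining 75 members had a lowest value of 136 FPKM (Rpl37), a median of 390.5 and a highest value of 1260.4 (Rpl13a), against a median of 10.1 over all genes analysed. FPKM is scaled to transcript length, but levels of different genes compare only roughly here, because these mRNAs are short and many share sequence with other genes. Of the 100 genes with the highest floxed FPKM 18 were members, of the 200 highest 47, and of the 500 highest 74. Levels differed by 9.29-fold between the highest and the lowest of the 75, with an SD of 0.56 on the log2(FPKM + 1) scale. The spread was about as wide in Cdh5Cre (8.09-fold, SD 0.57) and Sm22Cre (9.80-fold, SD 0.57).

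The members summed to 31601 FPKM in the floxed group, 49829 in Cdh5Cre and 33107 in Sm22Cre. That was 6.37%, 8.20% and 6.62%, in that order, of the sum over all listed genes, with the small subunit taking 2.79%, 3.57% and 2.90% and the large subunit 3.59%, 4.62% and 3.72%. Cdh5Cre stood above both other groups in each of these shares. The sum over all genes itself differed, at 495724 FPKM in the floxed group, 607860 in Cdh5Cre and 500015 in Sm22Cre.

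**Figure D1:**
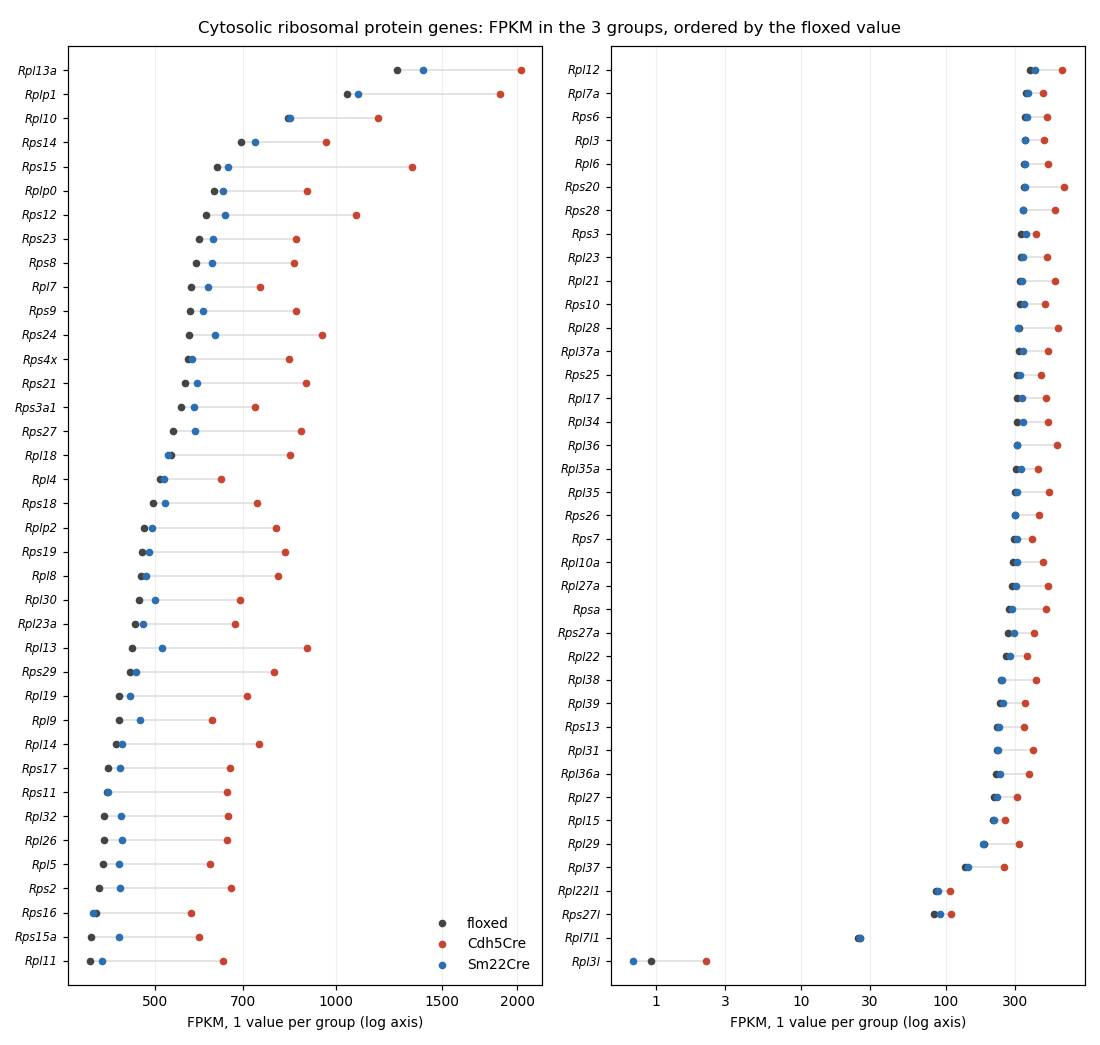
FPKM of 77 of the 79 analysed members (horizontal log axes with different ranges in the 2 panels), 1 point per group, ordered by the floxed value. The Cdh5Cre point lies to the right of both others for every gene except Rpl7l1, and the floxed and Sm22Cre points nearly coincide.

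The highest levels belonged to genes of both subunits. Rpl13a, whose protein sits on the surface of the large subunit, had 1260.4 FPKM in the floxed group, 2026 in Cdh5Cre and 1394 in Sm22Cre. Rpl10, which completes the large subunit late in its assembly, had 831, 1174 and 837 FPKM, and Rps14 of the small subunit had 694, 963 and 734. Rps15, which lies near the decoding site, had 633, 1335 and 661. Rpl13a and Rplp1 came first in every group, followed by Rpl10 in floxed and Sm22Cre and by Rps15 in Cdh5Cre.

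In Cdh5Cre against floxed, all 79 analysed members were higher in Cdh5Cre. The difference reached 1.5-fold on the log2(FPKM + 1) scale in 47 of them, 59.5%, where 8.33% of all genes analysed were higher by that much. No member was lower by 1.5-fold, against 6.02% of all genes. The members' median log2 ratio was 0.66 (quartiles 0.53 and 0.75) beside 0.02 for all genes, and it ran from 0.04 in Rpl7l1 to 1.07 in Rps15. Rescaling of the groups lowers these ratios without turning the median: with FPKM sums made equal, 77 of 79 were higher (not Rpl15 and Rpl7l1) with a median of 0.36, while the median of all genes went to -0.23, and the shares of all genes past 1.5-fold went to 2.25% higher and 18.0% lower. Under quantile normalization 72 were higher and 6 lower, with a median of 0.24.

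Both subunits took part. In the small subunit 17 of 32 members were higher by 1.5-fold or more (median log2 ratio 0.60), and in the large subunit 30 of 47 (median 0.68). The members kept close together: the SD of their log2 ratios was 0.16 over the 75 without paralogues, against 0.43 over all genes, and 60 of the 75 lay within 0.2 of their median. The members are abundant and mostly short. No SD was computed for other genes of like level and length, here or for Sm22Cre below. The authors' deposited table lists a status with each value, which the sources used here do not define, and 54 of the 79 members had OK and 25 had FAIL in this pair. Among the 54 with OK, 32 passed 1.5-fold and the median was again 0.66. Of all genes with OK in this pair 8.87% were higher by that much.

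**Figure D2:**
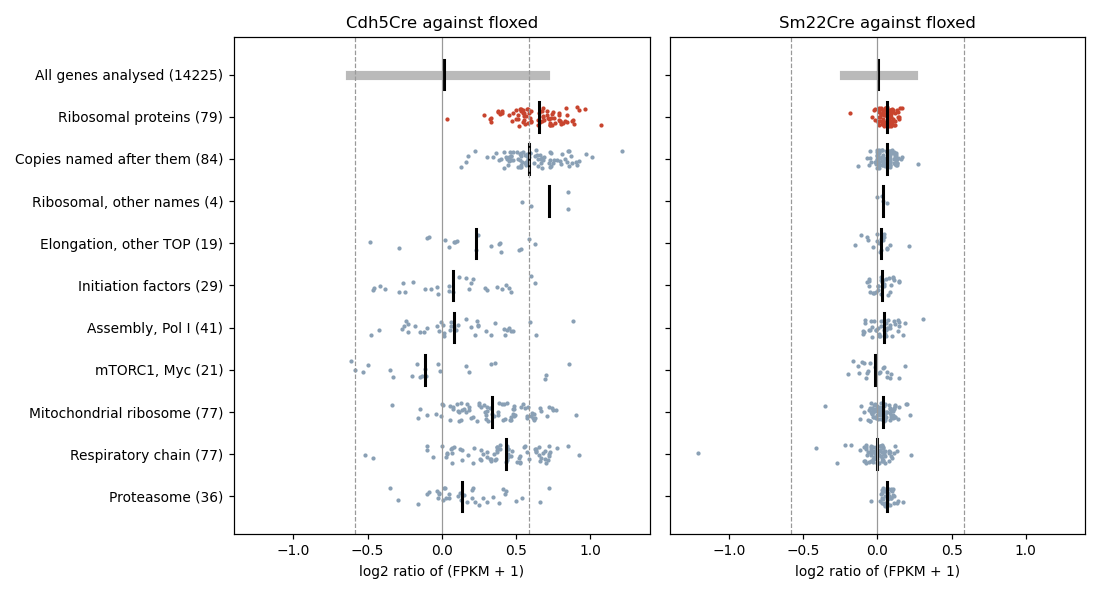
Log2 ratio of (FPKM + 1) for gene groups, Cdh5Cre against floxed on the left and Sm22Cre against floxed on the right, 1 point per gene, black bars at medians and dashed lines at 1.5-fold. The grey bar spans the central 90% of all genes analysed, and points beyond the axis range are not drawn. On the left the ribosomal protein genes have a median of 0.66, and on the right 0.06.

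On the log2(FPKM + 1) scale the highest ratios were found in members of both subunits. Rps15 (mm9 chr10:79755176-79756859) was at 633 FPKM in the floxed group and 1335 in Cdh5Cre, a 2.11-fold difference, with status FAIL. Rpl13 was at 458 and 894 FPKM (1.95-fold), and its listed locus, shared with other genes, spans chr8:122434260-126869624 on mm9. Rpl36 stood at 308 and 587 FPKM (1.90-fold). These 3 genes have some of the most GC-rich coding sequences of the family, at 58.9%, 58.5% and 61.6%, against a median of 52.7%. Rps20, which carries a mouse skin pigment mutation, was at 344 and 649 FPKM (1.89-fold), with a coding GC content of 49.0%. Rpl28 followed, at 321 and 597 FPKM (1.86-fold). As a plain ratio Rpl3l, near 1 FPKM in floxed, was above all of these at 2.43-fold, and its log2 ratio of 0.75 became 1.19 with a pseudocount of 0.1 FPKM and 1.28 with none.

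At the low end stood Rpl7l1, a relative of Rpl7 with a part in making the large subunit, at 24.8 FPKM in the floxed group and 25.5 in Cdh5Cre, a 1.03-fold difference. Rpl15, a core protein of the large subunit, was at 211 and 257 FPKM (1.22-fold), and Rpl22l1, the paralogue of Rpl22, at 85.4 and 107 FPKM. Rps3, at the entrance of the mRNA channel, was at 332 and 418 FPKM (1.26-fold). Rpl4, with the longest coding sequence of the family (1257 bases), was at 510.0 and 643 FPKM (1.26-fold), and Rpl7a was at 358 and 465. Rpl15 and Rps3 had status FAIL in this pair. None of these 6 reached 1.5-fold.

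By place in the ribosome, the P stalk, which calls in elongation factors, had 2 of 3 members past 1.5-fold. Its base protein Rplp0 was at 626 FPKM in the floxed group, 895 in Cdh5Cre and 647 in Sm22Cre, while the small acidic proteins Rplp1 and Rplp2 were at 1042, 1869 and 1087 and at 479.7, 794 and 494. The ratio of Rplp0 was the lowest of the 3, with log2 ratios of 0.51, 0.84 and 0.72. Rpl5 and Rpl11, which bring the 5S RNA into the large subunit and can bind Mdm2 when ribosome assembly fails, were at 409, 616 and 435 FPKM and at 389, 649 and 407, and both passed 1.5-fold. Both were highest in Cdh5Cre, and Rpl5 only just passed, at 1.51-fold.

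Of 7 proteins near the decoding site or the mRNA path, 4 passed 1.5-fold, with a median log2 ratio of 0.73. Rps2 was at 403, 668 and 437 FPKM and Rps28 at 339, 564 and 340.2. Rpsa, also known as the laminin receptor and mutated in congenital absence of the spleen, was at 275, 491 and 284. These 3 and Rps15 are the members that passed. Rps23, at the decoding centre, was at 592, 858 and 625 FPKM (log2 ratio 0.53), and Rps26, at the mRNA exit, at 298, 438 and 300.3 (0.55). The S6 kinase substrate Rps6 was at 349, 502 and 365 FPKM, with a log2 ratio of 0.52, below the mark.

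Around the peptidyl transferase centre and the L1 stalk, 2 of 4 members passed 1.5-fold. Rpl8 was at 473 FPKM in the floxed group and 799 in Cdh5Cre, and Rpl10a, the L1 stalk protein, at 292 and 469.5. Rpl3, next to the centre, was at 349 and 478 FPKM with a log2 ratio of 0.45, and Rpl10 at 831 and 1174 with 0.50. The last of these groups, at the tunnel through which the new protein leaves, had 5 of 8 past 1.5-fold. Among these Rpl31 was at 224 and 402 FPKM (log2 ratio 0.84) and Rpl35 at 302 and 514 (0.76), and below the mark stood Rpl4 (0.33), Rpl23a (0.56) and Rpl39 (0.58). The shares of these role groups lie around that of the whole family, 59.5%, and with 2 to 8 genes in each no difference between them was tested.

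Genes whose human counterparts are mutated in Diamond-Blackfan anaemia, a failure of red cell formation, were close to the family as a whole. Of 18 members in this list 12 passed 1.5-fold (66.7%), and their median log2 ratio was 0.68. Rps19, the gene most often affected, was at 475 FPKM in the floxed group, 820.3 in Cdh5Cre and 489 in Sm22Cre, and Rpl15, also on the list, had the lowest ratio at 0.28. Rpl38, mutated in the tail short mouse with its altered vertebral pattern, was at 240.1, 417 and 242 FPKM. Rps27a, which is made as a fusion with ubiquitin, was at 268, 406 and 297, just past 1.5-fold.

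The paralogues formed a low tier of their own. Rpl22l1 was at 32.7% of the Rpl22 level in floxed, 29.5% in Cdh5Cre and 32.1% in Sm22Cre, and Rps27l, a p53 target, at 15.5%, 12.5% and 15.6% of Rps27. Rpl7l1 was at 4.32%, 3.41% and 4.20% of Rpl7. In these 3 pairs the paralogue took its lowest share in Cdh5Cre. Rps27l had 83.0, 109 and 90.9 FPKM in the floxed group, Cdh5Cre and Sm22Cre beside 534, 874 and 581 for Rps27, and Rpl22 had 261, 363 and 276. Rpl3l, the striated muscle form of Rpl3, was at 0.92, 2.22 and 0.69 FPKM, so it passed the filter through Cdh5Cre alone, and it went the other way, with its highest share of Rpl3 in Cdh5Cre (0.26%, 0.47% and 0.20%). Rpl39l and Rpl10l, both known from the testis, stayed under the filter, the first at 0.12, 0.25 and 0.22 FPKM (0.051%, 0.070% and 0.090% of Rpl39) and the second listed at 0 in every group.

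Rpl3l is expressed in heart and skeletal muscle, and heart muscle genes were measured in these aortas. The summed FPKM of 9 heart muscle markers was 935 in the floxed group, 1442 in Cdh5Cre and 419.8 in Sm22Cre, the same order as Rpl3l. Of the 9, 8 were higher in Cdh5Cre than in floxed, all 9 were lower in Sm22Cre than in floxed, and none was at 0. Their part in the Rpl3l values was not tested.

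In Sm22Cre against floxed the family was nearly level. Of the 79 members 74 were higher and 5 lower in Sm22Cre, with a median log2 ratio of 0.06 beside 0.01 over all genes. No member reached 1.5-fold in either direction, where 0.619% of all genes were higher and 0.921% lower by that much. The ratios ran from -0.18 in Rpl3l to 0.17 in Rpl13, and 74 of the 75 members without paralogues lay within 0.1 of their median (SD 0.04, against 0.19 over all genes). With FPKM sums made equal 67 were higher and 12 lower, and under quantile normalization 60 and 15.

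The highest ratio was 1.12-fold. Rpl13 was at 458 FPKM in the floxed group and 514 in Sm22Cre, Rps15a at 390.5 and 434 (1.11-fold), and Rpl13a at 1260.4 and 1394 (1.11-fold). Rps27a (268 and 297), Rps24 (569.9 and 629) and Rpl34 (309 and 339.8) came next. At the other end, after Rpl3l, Rpl28 was at 321 and 313 FPKM, Rpl18 at 532 and 524, Rpl29 at 183 and 181 and Rps16 at 398 and 394. Rpl36, at 308 and 309, was the lowest of those that were not below floxed. Whether such small differences exceed the spread between mice cannot be told from group values.

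Sm22Cre against Cdh5Cre gives the direct comparison of the 2 Cre lines, and shares a group with each comparison above. In it 78 of 79 members were lower in Sm22Cre, and Rpl7l1 was level (25.5 FPKM in Cdh5Cre and 25.7 in Sm22Cre). The difference reached 1.5-fold in 37 members, all lower in Sm22Cre, where 7.57% of all genes were lower and 4.34% higher by that much. The median log2 ratio was -0.58, beside -0.01 for all genes. On the log2(FPKM + 1) scale Rps15 had the lowest ratio at -1.01 (1335 and 661 FPKM), followed by Rpl3l and Rpl28 at -0.93, Rpl36 at -0.92 and Rps20 at -0.89. Rpl3l, near 1 FPKM, came first with a smaller pseudocount (-1.56 at 0.1 FPKM) or none (-1.69), where Rps15 stayed at -1.01. Above Rps3 (-0.23), Rpl15 (-0.25), Rps27l (-0.26), Rpl22l1 (-0.27) and Rpl7 (-0.29) only Rpl7l1 remained.

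Across the 3 groups, 73 of the 79 members had the order floxed, Sm22Cre, Cdh5Cre from low to high. Rpl18, Rpl28, Rpl29, Rps16 and Rpl3l had Sm22Cre lowest, and Rpl7l1 alone had Sm22Cre highest.

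Transcript length and base composition moved with the Cdh5Cre ratios over the whole transcriptome. Over 12312 protein-coding genes, Spearman's rho of the log2 ratio of Cdh5Cre to floxed was -0.57 with annotated transcript length and 0.52 with GC content, as a description across genes, which are not replicates. A trend on both properties took up 44.2% of the variance of that ratio, 45.9% in Sm22Cre against Cdh5Cre and 3.63% in Sm22Cre against floxed. Ribosomal protein genes are short: the median coding length of the 75 members was 456 bases, from 153 in Rpl39 to 1257 in Rpl4, against 1353 over all protein-coding genes.

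Other short genes were higher in Cdh5Cre too, by less. Genes were divided by transcript length into 10 bins of nearly equal size. In the bin with the shortest transcripts (198 to 1219 bases), which held 59 members, the median log2 ratio of the other genes was 0.39 and that of the members 0.68. In the next bin it was 0.27 for other genes and 0.60 for 10 members, and in the third 0.18 and 0.53 for 6 members. The same held by level. Among genes at 250 to 500 FPKM in the floxed group, the other genes had a median of 0.22 and the 48 members 0.68, and from 500 FPKM up 0.26 and 0.57 for 18 members.

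With the trend on length and GC content removed, the family remained above other genes in Cdh5Cre but by less. The members' median log2 ratio went from 0.66 to 0.25, with 77 of 79 above 0, Rps14 (-0.04) and Rpl7a (-0.02) being the others. Then 8 members passed 1.5-fold, where 3.12% of the 12312 genes were higher and 2.07% lower by that much. These were Rps20 (1.24), Rps15a (0.94), Rpsa (0.71), Rpl21 (0.70), Rpl5 (0.67), Rps24 (0.67), Rpl31 (0.64) and Rpl18 (0.61). Rps15, first on the values as listed, stood at 0.47. With the mean level added to the trend the median was 0.065 and 53 of 79 were above 0. The members were themselves among the genes fitted, and the level was the mean over all groups, Cdh5Cre included. The fitted trends are thus not independent of the members' own ratios.

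Some of these values rest on which transcript is taken. The longest principal transcript of Rps15a has 5179 bases and the shortest 640. For Rps20 the annotation holds 3706 bases although the coding sequence has 357. With the shortest principal transcript in place of the longest, 5 members passed 1.5-fold, where 3.09% of genes were higher and 2.58% lower. These were Rps20 (1.26), Rpl5 (0.72), Rps24 (0.72), Rpl27a (0.64) and Rpl37 (0.63), and the median was 0.27. Rps20, Rpl5 and Rps24 passed on both. In Sm22Cre against Cdh5Cre the trend-removed median was -0.22 and 9 members were lower by 1.5-fold, where 3.19% of genes were lower and 1.23% higher. In Sm22Cre against floxed the median was 0.03 and no member passed, where 0.292% of genes were higher and 0.634% lower.

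Inside the family GC content and coding length varied with the ratio, and transcript length less so. Over the 75 members without paralogues, Spearman's rho of the Cdh5Cre to floxed ratio was -0.37 with coding length and 0.41 with coding GC content. It was -0.20 with the length of the shortest principal transcript, 0.42 with its GC content and -0.13 with the floxed FPKM. Over all protein-coding genes rho with coding length was -0.38. All these points come from the same pair of group values, and are given as a description. Rpl36, Rps15 and Rpl13 combine high GC content with high ratios, while Rps20 has a high ratio at 49.0% GC, and Rpl15 and Rps3 low ratios at 53.6% and 53.5%.

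**Figure D3:**
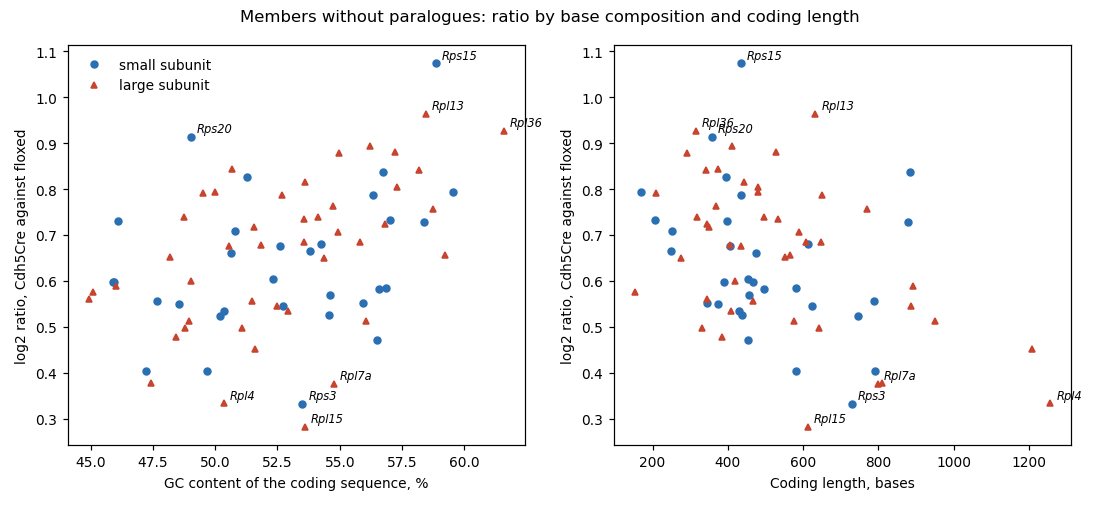
Log2 ratio of Cdh5Cre to floxed for the 75 members without paralogues, against the GC content of the coding sequence (left) and coding length (right), circles for the small and triangles for the large subunit. Spearman's rho is 0.41 on the left and -0.37 on the right, and the 4 highest and 4 lowest genes are named.

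Ribosomal protein mRNAs have many processed copies in the genome, and fragments can match more than 1 place. Of the 75-base words in a member's shortest principal transcript, a median of 48.3% occurred also in transcripts of another gene. Of the 79 members 75 shared words with an annotated pseudogene. The share was 98.5% in Rps27, 91.9% in Rpl10 and 90.1% in Rps10, while Rps3 and Rpl3l were among those that shared none. The sources used here do not say how the authors' counting treated such fragments. The 36 members with 50% or more shared words had a median log2 ratio of 0.63 in Cdh5Cre against floxed and the 43 with fewer 0.66. The listed locus of 44 members overlaps that of another gene. Among the 35 analysed members with a locus of their own 21 passed 1.5-fold, with a median of 0.68. Of all analysed genes with a locus of their own 8.87% were higher by that much.

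Genes around the ribosome were compared in the same way. The 4 ribosomal proteins whose names fall outside the rule had ratios within the range of the family. Fau was at 411 FPKM in the floxed group, 742 in Cdh5Cre and 410.8 in Sm22Cre. In the same order, Rack1 was at 451, 685 and 462, and Rpl36al at 132, 193 and 138.5. All 4 were higher in Cdh5Cre and 3 passed 1.5-fold, with a median log2 ratio of 0.73. Of 19 elongation factors and other genes with a known C/T tract 15 were higher, with a median of 0.23. Of these 19, 2 (10.5%) passed 1.5-fold, where 8.33% of all genes were higher by that much. In this list Eef1d (145, 224 and 146 FPKM) and Eif3f (77.0, 116 and 73.8) had the highest ratios, and Eif4b (83.1, 59.0 and 74.7) and Hnrnpa1 (92.0, 75.2 and 91.9) the lowest. Known C/T tracts thus went with log2 ratios from -0.49 to 0.63 in that list.

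On the values as listed, factors that start translation or build ribosomes were close to the average gene. Of the initiation factors 17 of 29 were higher in Cdh5Cre than in floxed, and the median log2 ratio was 0.08. By 1.5-fold 2 (6.90%) were higher, where 8.33% of all genes were. The initiation factors ranged from Eif2s3x (37.8 and 27.2 FPKM) and Eif4g2 (589.6 and 427) at -0.46 to the exchange factor subunit Eif2b2 (27.6 and 43.3) at 0.63. Among assembly factors and RNA polymerase I subunits 27 of 41 were higher and 3 (7.32%) past 1.5-fold, again with a median of 0.08. Nhp2, a protein of the small nucleolar RNA particles, was highest at 13.3 and 25.5 FPKM, and the pseudouridine synthase gene Dkc1 lowest at 14.6 and 10.2.

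The mTORC1 pathway, which controls the translation of ribosomal protein mRNAs, showed no common direction together with Myc and Max. Of 21 genes 7 were higher and 14 lower in Cdh5Cre, with a median of -0.11. By 1.5-fold 3 (14.3%) were higher and 2 lower, where 8.33% of all genes were higher and 6.02% lower. Rps6kb2, an S6 kinase, was at 15.8 FPKM in the floxed group and 29.5 in Cdh5Cre, and Eif4ebp1, a repressor that mTORC1 inactivates, at 42.9 and 70.3. Eif4ebp2, of the same repressor family, was at 32.3 and 20.8, and the GTPase gene Rragb at 6.23 and 3.81.

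On the same values other large complexes had medians between these and the family. Mitochondrial ribosomal proteins had 71 of 77 higher, 14 (18.2%) past 1.5-fold and a median of 0.34. Nuclear-encoded respiratory chain subunits had 72 of 77 higher, 21 (27.3%) past and 0.43. Proteasome subunits had 27 of 36 higher, 2 (5.56%) past and 0.14. Of all genes 8.33% were higher by 1.5-fold. With the trend on length and GC content removed these 3 medians were 0.11, 0.03 and -0.02, against 0.25 for the cytosolic ribosomal protein genes and 0.29 for the 4 named outside the rule. Assembly factors then stood at 0.13 (29 of 41 above 0) and initiation factors at 0.08 (21 of 29), so the order of the lists was not that of the values as listed. The mTORC1 list was at -0.02, and 9 of 18 elongation factors and other C/T tract genes were above 0. In Sm22Cre against floxed the medians of all 8 lists lay between -0.01 and 0.07. No gene of these lists was higher by 1.5-fold, where 0.619% of all genes were, and 1 was lower, where 0.921% of all genes were: the respiratory chain gene Cox6a2, a heart and skeletal muscle form, at 35.1 FPKM in the floxed group and 14.7 in Sm22Cre, named after its value was seen.

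As a set, the copies of ribosomal protein genes that passed the filter were higher in Cdh5Cre too, but single copies were not paired with their parents. The table lists 199 retrocopies and pseudogenes named after a member, of which 84 reached 1 FPKM in some group and 52 were at 0 in every group. Their FPKM came to 1694 in the floxed group, 2639 in Cdh5Cre and 1762 in Sm22Cre, which is 5.36%, 5.30% and 5.32% of the members' sums. All 84 were higher in Cdh5Cre than in floxed, and their median log2 ratio was 0.58. Of the 84, 42 passed 1.5-fold, where 8.33% of all genes were higher by that much. The largest was Rps6-ps4, at 112, 169 and 115 FPKM, and Rps3a2 was at 70.8, 92.9 and 74.0. Fragments of a parent gene assigned to its copies cannot be told apart here from transcripts of the copies.

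Markers of several cell types differed between the same groups. In Cdh5Cre against floxed all 5 of the analysed erythroid markers of 8 were higher, and the list summed to 4020.1, 25454 and 9029 FPKM in the floxed group, Cdh5Cre and Sm22Cre. All 8 platelet markers were higher, summing to 48.9, 279 and 92.2, and all 4 analysed of 8 neutrophil markers, summing to 3.83, 44.1 and 13.4. With a floxed sum of 3.83, not all 4 neutrophil markers reached 1 FPKM in floxed, so the filter partly sets their direction. Markers under the filter enter the sums and are given no direction. Lymphoid markers summed to 14.5, 28.8 and 17.9 (all 6 analysed of 9 higher), and macrophage markers to 200.5, 227 and 212, with 4 of 8 higher. None of the blood markers was at 0 in every group, and the red cell membrane genes Slc4a1 and Epb42 stayed under 1 FPKM throughout.

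Markers of the vessel wall were compared next. Endothelial markers summed to 367, 558 and 412 FPKM (11 of 12 higher in Cdh5Cre), fibroblast markers to 3091, 4477 and 3031 (9 of 10 higher), and smooth muscle markers to 7219.8, 7533 and 7133, with 3 of the 8 analysed of 9 higher. Acta2, a defining smooth muscle gene, is listed at 0 in all groups with the status HIDATA and is not read as absent. The sums of the erythroid, platelet, neutrophil, lymphoid and endothelial markers and of the ribosomal protein genes had the order floxed, Sm22Cre, Cdh5Cre from low to high. So did the sum over all listed genes, at 495724, 500015 and 607860 FPKM. Among the lists around the ribosome, all but the elongation factor list and the respiratory chain subunits had this order as well. The macrophage sum had it too, but single macrophage markers went both ways, with a median log2 ratio of -0.06 in Cdh5Cre against floxed. Of the 8, 2 were lower by 1.5-fold in that comparison, where 6.02% of all genes were. The part of any cell type in the ribosomal values was not tested. In bulk tissue fewer cells of a type and less RNA per cell cannot be told apart.

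**Figure D4:**
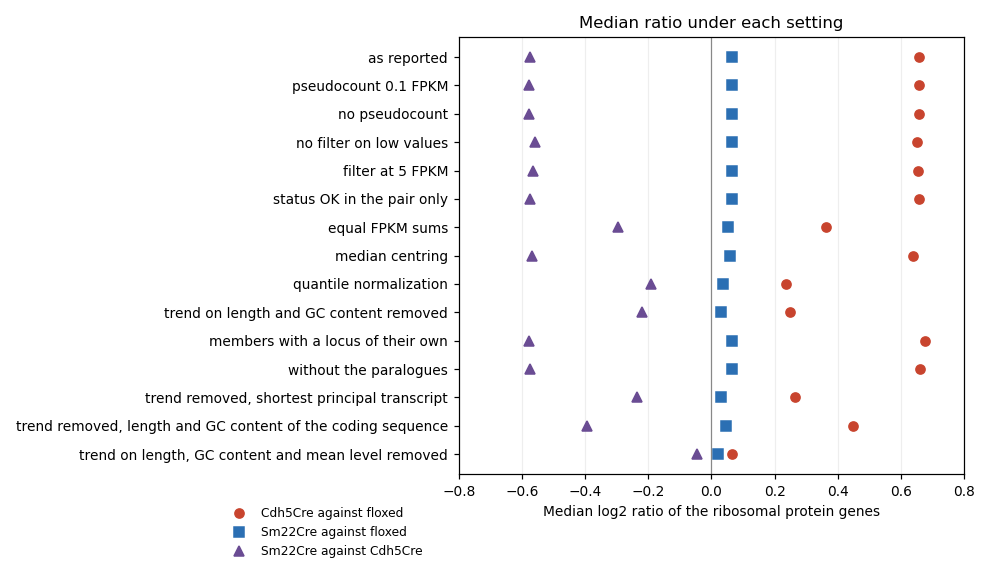
Median log2 ratio of the ribosomal protein genes in each of the 3 comparisons (horizontal axis) under the values as reported and each other setting (vertical axis). Every median keeps its sign, and the Cdh5Cre to floxed median goes from 0.66 as reported down to 0.065 with length, GC content and mean level removed.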

How the data were processed

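Per the labels' protocols, 1 µg of RNA from frozen aorta (RNA integrity number above 8) went into poly-A selection, and stranded libraries of about 300 bp were read as 75-base pairs on an Illumina HiSeq4000. The submitters' processing notes name TopHat2 2.0.8, Bowtie2 2.1.0, SAMtools 0.1.7, Cufflinks 1.3.0 and mm9. The authors deposited 1 FPKM per gene and group in 113004 rows for 3 pairs of groups. The sources used here do not name the gene annotation. Group values differed between pairs for 15 genes, none a member.

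Symbols, transcript lengths and GC content came from GENCODE M21, on another build, matched by gene ID (32638 genes had a symbol). Annotated transcript length is that of the longest transcript marked as principal, where any was marked. Listed mm9 starts count from 0, so 1 was added. Genes with status HIDATA (7) were removed. Ratios were computed on log2(FPKM + 1), folds printed with FPKM values are plain ratios, and a gene was counted at 1.5-fold on the log scale. The trend was a polynomial of degree 3 in log length and in GC content, with their product, over 12312 genes, members included. It was tested on simulated ratios in which genes drawn at random were shifted. That does not cover a shared shift of mostly short genes such as the members. Python 3.11.15, pandas 2.3.3 and numpy 2.4.6 were used. Members and lists were chosen with earlier results of these data known. Named are the 6 highest levels, the 6 highest and lowest ratios of each comparison, members of the role groups, all paralogues, and up to 2 genes from each end of other lists; the members Rpl21, Rpl27a and Rpl37 and the copies Rps6-ps4 and Rps3a2 were chosen after their values were seen. Some genes that this rule names are not reported here.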

Additional observations from a re-analysis of the deposited data

How the results depend on the processing

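Other pseudocounts, other filters on low values, status OK alone, median centring and leaving out the paralogues moved no median by 0.1 or more on the log2 scale, and no setting turned the sign of a median. In Cdh5Cre against floxed the median of 0.66 became 0.36 with equal FPKM sums, 0.24 under quantile normalization and 0.25 with the trend removed. Under 3 trends added after seeing the data it became 0.27 (shortest transcript), 0.45 (coding sequence) and 0.065 (length, GC content and level). The count of 47 past 1.5-fold became 1 at 2-fold and 77 at the lowest fold tried, for which no share of all genes is given. It became 7 with equal sums, 3 under quantile normalization, 8 with the trend removed and 21 among members with their own locus (fewer genes). Of all genes 2.25%, 6.59%, 3.12% and 8.87% were higher by 1.5-fold in these settings. Under quantile normalization the members' share was thus below that of all genes. Under the added trends 5, 13 and 5 members passed, where 3.09%, 3.74% and 3.08% of genes did. In Sm22Cre against Cdh5Cre the median of -0.58 became -0.29, -0.19 and -0.22, and -0.23, -0.40 and -0.045 under the added trends. The count of 37 became 1, 72, 6, 3, 9, 17, 7, 10 and 5, in the same order of settings. From equal sums on, 2.49%, 6.23%, 3.19%, 8.06%, 3.25%, 3.54% and 3.06% of all genes were lower by 1.5-fold. Here too the members' share under quantile normalization was below that of all genes. In Sm22Cre against floxed the count stayed at 0. Without mitochondrial and globin genes the members' shares were 6.92%, 9.43% and 7.21% in floxed, Cdh5Cre and Sm22Cre, and among protein-coding genes the Cdh5Cre share was 8.79%. Beyond what each construction shows, the cause of these shifts was not tested. No paired analysis was possible because the table holds 1 value per group. For the same reason no replicate could be left out in turn, and the depth behind each value is unknown.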
